A study of Mus musculus with 6 samples.

Results

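The genes described here are 38 endothelial and angiogenesis genes, chosen by name as rows of a deposited table of 25251 genes from bulk RNA sequencing of CT26 tumours. All 38 names matched 1 row, and all 38 passed the filter on low values (a mean of at least 10 normalized counts over the 6 libraries), as did 14639 genes in all. CT26 is a mouse colon carcinoma line. It was grown under the skin of BALB/c mice with a wild-type genotype label. The 3 irinotecan tumours came from mice that received CPT-11 (irinotecan, a topoisomerase I inhibitor prodrug) intraperitoneally at 25 mg/kg every 4 days, starting from tumours of 100 mm3, and the 3 control tumours from mice that received solvent. The labels name neither the mouse behind each tumour nor the time from last dose to collection, so p-values measure only the spread between these samples, which may be technical. The series' design text speaks of duplicates, while the labels list 3 samples in each group, and all 3 were used.

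Blood vessels are lined by endothelial cells, which are held together by junction proteins such as VE-cadherin (Cdh5) and PECAM-1 (Pecam1). Vessel growth is driven by VEGF ligands that act on the receptors Kdr and Flt1, by angiopoietins that act on Tek with its partner Tie1, and by Notch signalling. Cells that lead a new sprout, the tip cells, are known for high Apln, Angpt2, Esm1 and Dll4, and the transcription factors Erg, Sox7, Sox17 and Sox18 set endothelial gene expression. In RNA from a whole tumour, fewer endothelial cells and less RNA per endothelial cell cannot be told apart.

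Promoter sequences of 5 members are shown as examples of the letters before their starts. Erg and other ETS factors are known to bind a GGAA core in endothelial promoters, and whether such binding bears on the values below was not tested. Of the 38 members, 21 matched a promoter entry of RefSeq (GRCm38.p6), with 27 windows of 250 bases before an annotated start. The ETS motif searched was AGGAAG on both strands. It lay in 13 of the 27 member windows (48.1%) and in 29.5% of all 32851 windows. The windows below are 1 each from the tip-cell genes with and without a match, the junction, receptor and transcription factor genes. They lie at chrX:48034854-48035103 (minus strand) for Apln, chr13:113209409-113209658 (plus strand) for Esm1, chr16:18776597-18776846 (plus strand) for Cldn5, chr2:32646345-32646594 (plus strand) for Eng and chr16:95459349-95459598 (minus strand) for 1 of the 3 Erg starts. No annotated exon of GENCODE M21 lay in any of the 5. Each is printed from 5′ to 3′ on the gene's strand, with capitals for the motif or its reverse complement.
Apln: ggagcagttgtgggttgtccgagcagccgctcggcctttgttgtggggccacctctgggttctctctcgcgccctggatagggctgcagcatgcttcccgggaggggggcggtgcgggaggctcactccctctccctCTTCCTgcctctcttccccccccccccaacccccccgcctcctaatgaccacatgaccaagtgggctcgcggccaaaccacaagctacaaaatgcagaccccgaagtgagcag
Esm1: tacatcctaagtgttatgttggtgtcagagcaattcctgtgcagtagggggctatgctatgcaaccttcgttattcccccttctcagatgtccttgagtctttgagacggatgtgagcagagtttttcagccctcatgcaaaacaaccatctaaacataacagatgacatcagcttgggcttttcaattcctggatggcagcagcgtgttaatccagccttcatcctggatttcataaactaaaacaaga
Cldn5: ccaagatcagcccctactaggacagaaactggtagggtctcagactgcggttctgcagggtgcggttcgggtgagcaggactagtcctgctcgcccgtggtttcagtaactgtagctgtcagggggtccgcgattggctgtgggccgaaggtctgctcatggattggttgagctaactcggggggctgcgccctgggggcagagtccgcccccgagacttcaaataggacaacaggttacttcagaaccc
Eng: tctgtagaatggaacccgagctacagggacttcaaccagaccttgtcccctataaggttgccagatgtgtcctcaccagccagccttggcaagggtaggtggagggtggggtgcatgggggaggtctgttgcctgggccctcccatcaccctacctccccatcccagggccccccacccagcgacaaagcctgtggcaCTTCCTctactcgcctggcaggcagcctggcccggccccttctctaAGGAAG
Erg: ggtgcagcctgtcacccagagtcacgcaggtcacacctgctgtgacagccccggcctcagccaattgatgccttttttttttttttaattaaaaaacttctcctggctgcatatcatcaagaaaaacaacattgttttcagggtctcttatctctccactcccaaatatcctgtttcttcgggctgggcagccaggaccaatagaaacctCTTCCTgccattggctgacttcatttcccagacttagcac

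The first base of the match lay at -113 from the start in Apln and at -40 in this Erg window, and Eng had matches at -52 and -6. The Esm1 and Cldn5 windows held no match in these 250 bases, and neither did the other Erg windows. A SOX motif (AACAAT) lay in 4 of the 27 member windows (14.8%) and 9.42% of all windows, the RBPJ motif of Notch targets (TGGGAA) in 6 (22.2%) and 21.6%, and the hypoxia motif (ACGTG) in 2 (7.41%) and 16.6%. The ETS and RBPJ matches overlapped in 58 of all windows. A match describes letters only.

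Values are normalized counts, which are reads per gene divided by 1 factor per library. The libraries held 13940650 to 15656894 reads. Irinotecan replicate 1 stood apart, with a correlation across genes of 0.932 to 0.941 with the other libraries, against 0.9748 to 0.9846 among those. It had reads in 19040 genes, against 20571 to 21426 in the others. It had a single read in 2.15% of all 25251 genes, against 5.51% to 6.70% in the others. It was the lowest of the 6 libraries for 23 of the 38 members, and leaving it out moved the value of 20 members over 1.5 times. The part of these library differences in the results was not tested, and values without this library stand beside those it moved that far. Of the defining endothelial markers, all 6 were present in every library. Of the colon tumour markers, Krt8 had 37.0 to 149.3 normalized counts and Krt18 46.2 to 142.2, Cdh1 (E-cadherin) had 11.1 to 37.99, and Epcam was at 0 in 5 of the 6 libraries.

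**Figure D1:**
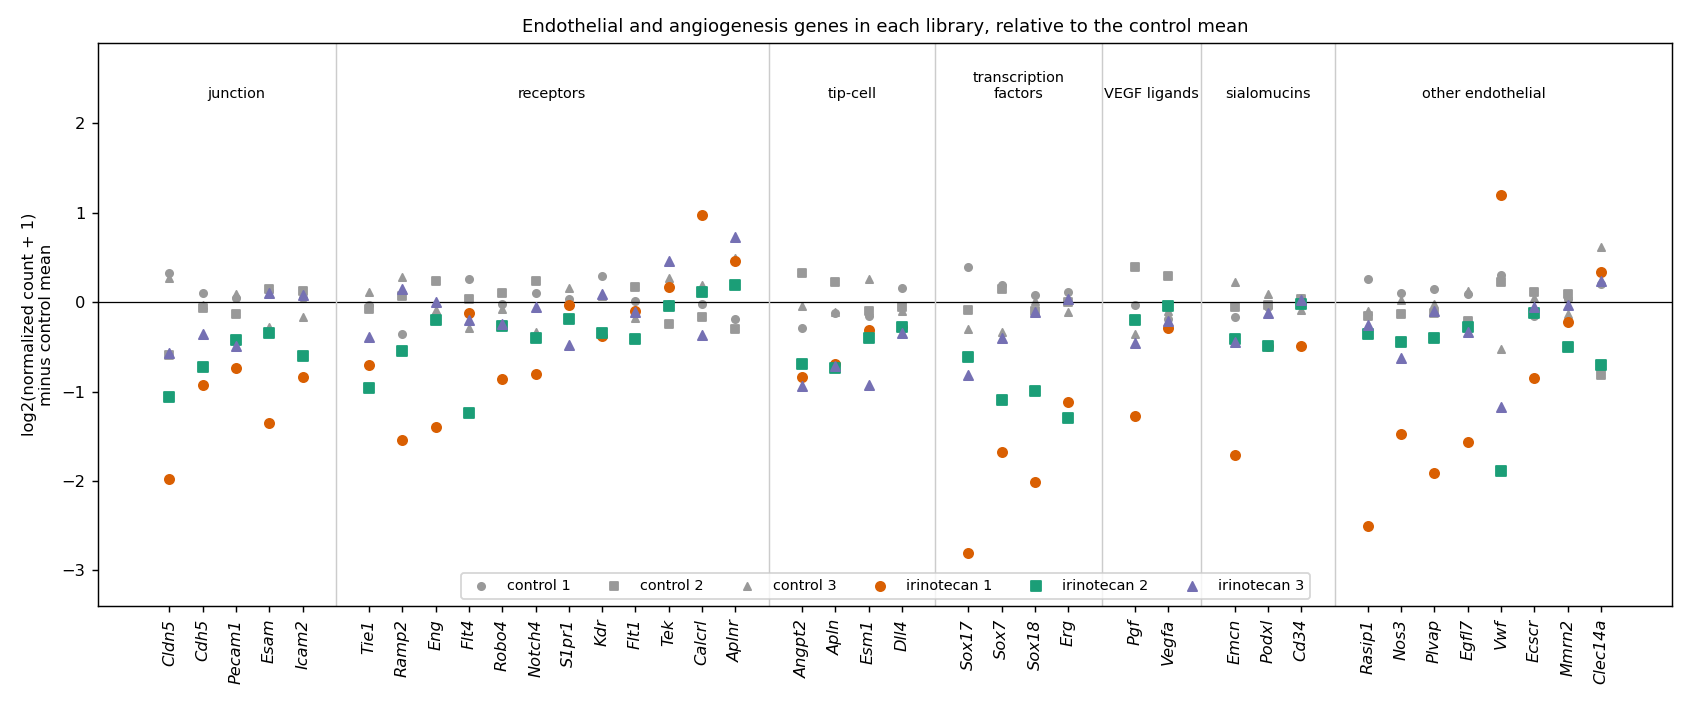
Each member's log2(normalized count + 1) minus its control mean (y axis), by role group (x axis), with 1 point per library, grey for controls and coloured for irinotecan. Most irinotecan points lie under 0, and irinotecan replicate 1 (orange circles) reaches below -2 in Rasip1, Sox17 and Sox18.

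Most endothelial genes had a lower mean in the irinotecan tumours. The log2 fold change (irinotecan minus control, on log2 of the normalized count + 1) was negative for 35 of the 38 members, with a median of -0.54. It was negative for 36 members without irinotecan replicate 1, with a median of -0.31. Over all tested genes it was negative for 51.9%, with a median of -0.01. In 16 members (42.1%) all 3 irinotecan libraries lay below all 3 controls, as they did in 7.89% of all tested genes, and in 0 members did they lie above, as in 6.68% of all. The junction, tip-cell and SOX genes held 9 of these 16.

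By limma, which fits all genes at once, 0 members passed a Benjamini-Hochberg adjusted p of 0.05, as did 0% of all tested genes. At an unadjusted limma p under 0.05, 12 members were lower (31.6%, against 3.08% of all tested genes) and 0 higher (against 2.68%). These were Apln, Angpt2, Esm1, Cdh5, Pecam1, Cldn5, Tie1, Sox7, Sox17, Sox18, Emcn and Nos3. Without irinotecan replicate 1 the count was 13 (34.2%, against 5.15%), the 12 plus Vwf. The same count was 9 by edgeR's quasi-likelihood test with TMM (against 2.72% of all tested genes), without Emcn, Sox17 and Sox18, and 12 by DESeq2 (against 3.03%). The count depended on the libraries kept. It was 6 without control replicate 1 (against 1.12%), 6 without control replicate 3 (against 1.47%) and 21 without irinotecan replicate 3 (against 4.55%). At an unadjusted limma p under 0.01 it was 4 (against 0.546%). Apln, Angpt2, Cdh5, Pecam1 and Tie1 were the 5 of the 12 that stayed under 0.05 in every alternative run. By adjusted p, DESeq2 called 1 member, Apln, among 52 genes (0.355% of those tested).

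**Figure D2:**
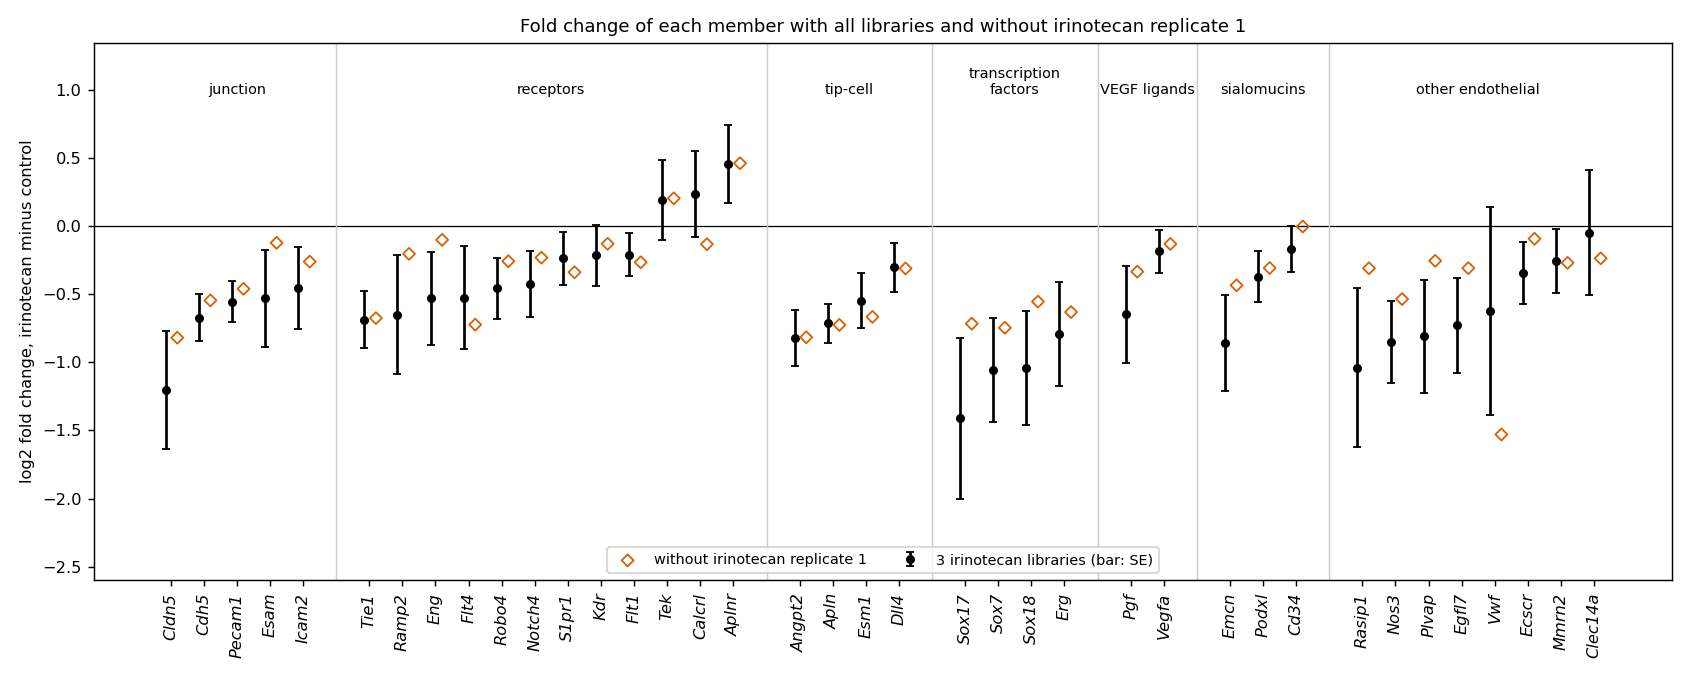
The log2 fold change of each member (y axis) by role group (x axis), as black points with bars of 1 SE from limma, and as open diamonds without irinotecan replicate 1. The tip-cell values barely move between both, whereas the diamonds of Esam, Plvap, Eng and Rasip1 lie closer to 0.

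The tip-cell group was the 1 role group in which every member separated the treatments in all libraries. The median log2 fold change of the 4 genes was -0.63, and 3 of them had an unadjusted limma p under 0.05. As medians of the 4 genes against their control means, the control libraries stood at -0.14, 0.09 and -0.07 and the irinotecan libraries at -0.50, -0.55 and -0.82. The group's median log2 fold change was -0.69 without irinotecan replicate 1.

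Apln encodes apelin, a secreted peptide, and lies on chromosome X from 48025146 to 48034853 (minus strand, GRCm38). It had 1086, 1385 and 1099 normalized counts in control replicates 1, 2 and 3 and 734, 709 and 723 in irinotecan replicates 1, 2 and 3. The 3 irinotecan libraries lay close together and all below the lowest control. The log2 fold change was -0.71 (SE 0.143, 95% interval -1.04 to -0.38), a change of -38.9%, and ranked 18 by p among all tested genes (limma adjusted p = 0.662). It was between -0.77 and -0.60 in every alternative run. In the authors' deposited table Apln was the member with the smallest adjusted p (0.0288, log2 fold change -0.72), and the only one under 0.05. That table has 19 lower genes at this threshold, 0.0753% of those with a p. DESeq2 gave an adjusted p of 0.0133, and limma with estimated library weights 0.0261, each with 52 genes called (0.355%), both from the same libraries.

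Angpt2, on chromosome 8 from 18690263 to 18741562, encodes angiopoietin-2, which loosens vessels by opposing Tek activation. It had 239, 366 and 284 normalized counts in control tumours, against 163, 180 and 152 in irinotecan tumours. Every irinotecan value was below the lowest control (log2 fold change -0.82, SE 0.206). Esm1 encodes endocan, a secreted proteoglycan, and lies on chromosome 13 from 113209659 to 113218098. It had 8743, 9073 and 11616 normalized counts in control tumours, against 7838, 7375 and 5106 in irinotecan tumours, again without overlap (-0.55, SE 0.201). Esm1 was at -0.36 without irinotecan replicate 3, and its unadjusted limma p was over 0.05 without that library, without control replicate 3 and with the replicate block. Dll4, a Notch ligand, had 198, 170.4 and 165.6 against 145.8, 146.4 and 139.9, also without overlap (-0.30, SE 0.181), and was at -0.15 after removal of a curve for GC and length. An antisense transcript overlaps 214 of its 3852 exon bases, and whether reads were counted by strand was not stated in the sources used here.

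**Figure D3:**
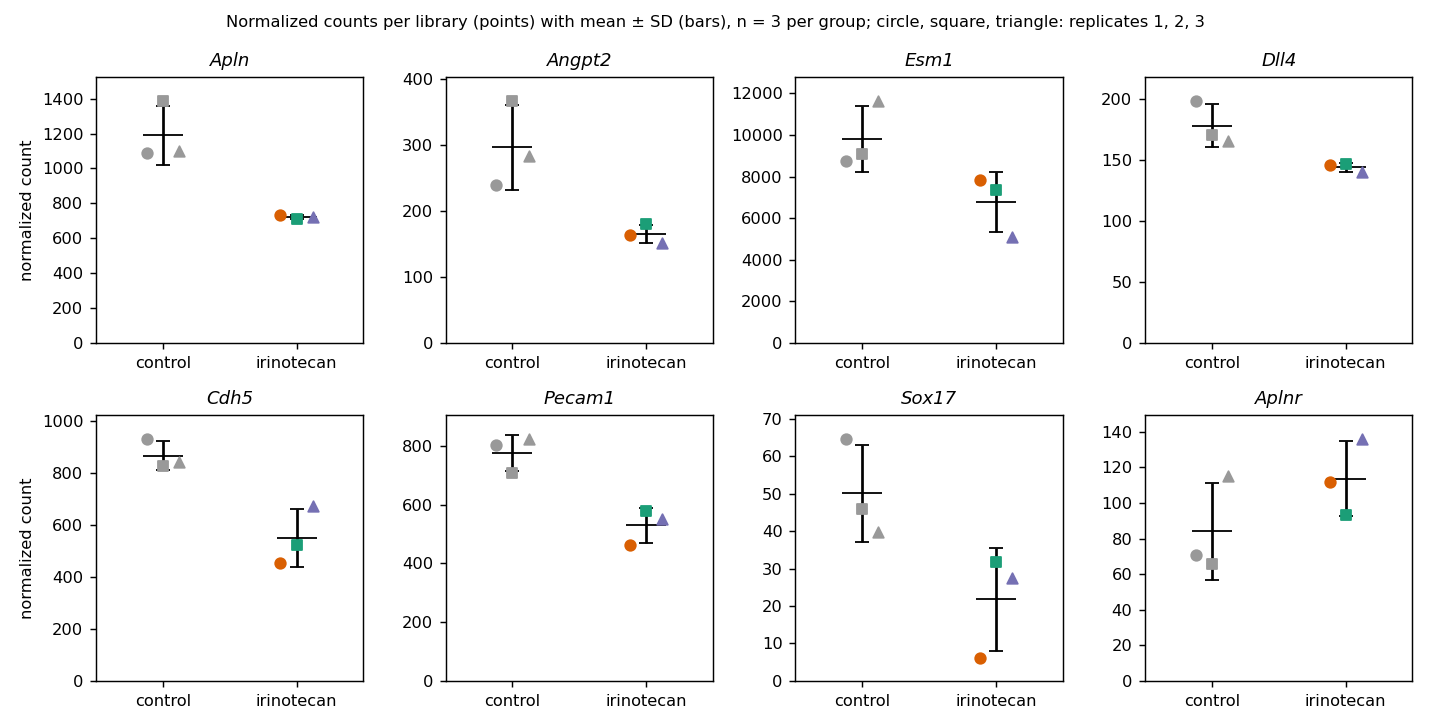
Normalized counts (y axis) of 8 members in the control and irinotecan groups (x axis), with points for libraries and bars for mean ± SD, n = 3 per group. The 4 tip-cell genes, Cdh5, Pecam1 and Sox17 do not overlap between groups, and Aplnr does.

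The apelin receptor had the highest value of the 38 members, while its ligand was lower, and the difference between both was not tested. Aplnr had 71.0, 65.9 and 115.2 normalized counts in control tumours, against 111.9, 93.4 and 135.8 in irinotecan tumours. The groups overlapped through control replicate 3, and the log2 fold change was 0.46 (SE 0.286, 95% interval -0.20 to 1.12). Without control replicate 3 it was 0.71. The other 2 members with a positive value were also receptors. Tek, the angiopoietin receptor, stood at 0.19 (SE 0.294), and between 0.06 and 0.33 with 1 library left out. Calcrl, a receptor for adrenomedullin that works with Ramp2, had 272, 245 and 315 in control tumours, against 543, 298 and 213 in irinotecan tumours, so that its sign came from irinotecan replicate 1. It was -0.13 without that library.

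All 5 junction genes had a negative log2 fold change, with a median of -0.55. Of these, 3 had an unadjusted limma p under 0.05 and 2 separated the groups. Cdh5 (chromosome 8, 104101625 to 104144511) had 930.2, 827 and 844 normalized counts in control tumours, against 454, 522 and 675 in irinotecan tumours, a log2 fold change of -0.67 (SE 0.173). Pecam1 (chromosome 11, 106654217 to 106750628) had 801, 707 and 822 against 463, 578 and 549 (-0.55, SE 0.149). In both, the highest irinotecan library stayed under the lowest control, and without irinotecan replicate 1 they were at -0.54 and -0.46.

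Cldn5, the tight junction claudin of endothelium, had the lowest value of the junction genes at -1.20 (SE 0.435). Its counts were 89.7, 47.0 and 86.2 in control tumours, against 17.5, 33.7 and 47.6 in irinotecan tumours, and the groups touched at control replicate 2. Esam, an adhesion molecule of endothelial junctions, had 233, 236 and 176 against 83.2, 168 and 229. Icam2, a ligand for leukocyte integrins, had 87.9, 93.1 and 75.5 against 47.2, 55.9 and 90.2. In these last 2 genes irinotecan replicate 3 lay among the controls, and without irinotecan replicate 1 the log2 fold changes were -0.12 for Esam and -0.26 for Icam2.

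The 4 transcription factors had a median of -1.05, the lowest of the role groups with all libraries. Without irinotecan replicate 1 it was -0.67, beside -0.69 for the tip-cell genes. The libraries were far apart: the group's median per library was -1.84, -1.04 and -0.26 in irinotecan replicates 1, 2 and 3. Control libraries spread from -0.20 to 0.15.

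Sox17 had 64.5, 46.0 and 39.7 normalized counts in control tumours, against 6.16, 31.8 and 27.4 in irinotecan tumours (-1.41, SE 0.590), which went to -0.72 without irinotecan replicate 1. A transcript on the other strand overlaps 804 of its 4772 exon bases. Sox7 had 81.3, 78.4 and 56.2 against 21.6, 32.7 and 53.7 (-1.06, SE 0.379). Sox18, the highest of the 4 per kilobase, had 244, 215 and 233 against 56.5, 115.6 and 213 (-1.04, SE 0.418), and -0.55 without irinotecan replicate 1. The 3 SOX genes, which form the SOXF family, all separated the groups, although irinotecan replicate 3 came within a few counts of the controls in Sox7 and Sox18. Erg, the ETS factor, had 75.7, 70.1 and 64.9 against 31.8, 27.9 and 72.0, and overlapped through irinotecan replicate 3 (-0.79, SE 0.383). It was at -1.21 without that library.

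**Figure D4:**
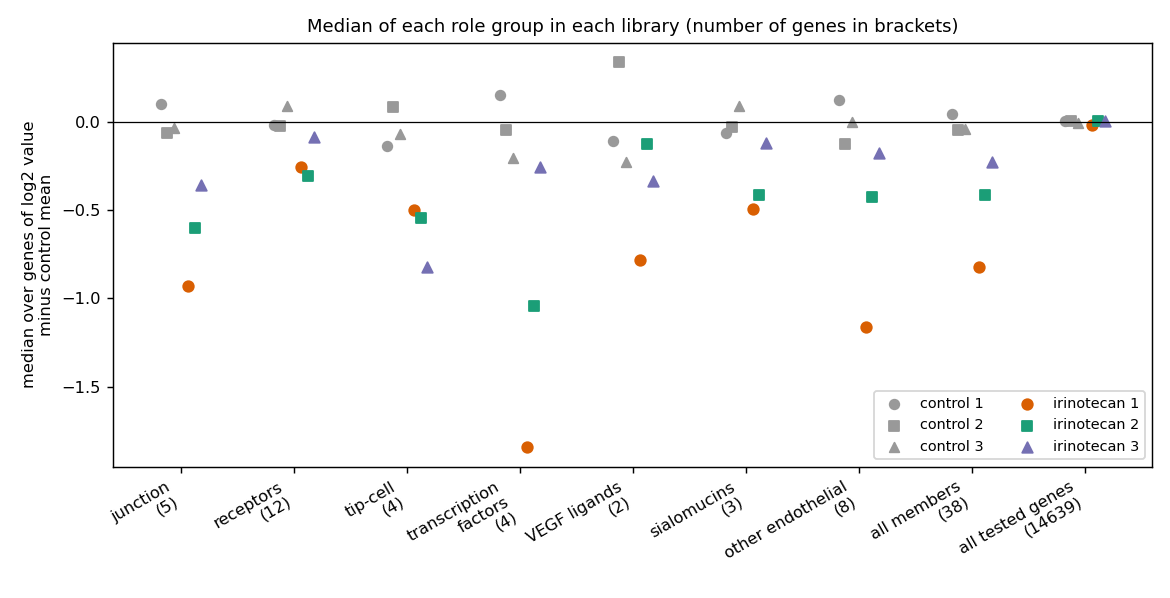
Median over the genes of each role group of log2(normalized count + 1) minus the control mean (y axis), 1 point per library, with the number of genes under each group (x axis). The transcription factor points spread from -1.84 to -0.26 with irinotecan, while the tip-cell points lie between -0.82 and -0.50 and those of all tested genes lie near 0.

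Receptors were less shifted as a group, though by little against some role groups. Of 12, 9 had a negative log2 fold change and 2 separated the groups. The median was -0.33, beside -0.37 for the sialomucins and -0.41 for the VEGF ligands. Without irinotecan replicate 1 these medians were -0.22, -0.31 and -0.23. Tie1 was the lowest, with 216, 208 and 238 normalized counts in control tumours, against 134.5, 112.7 and 168 in irinotecan tumours (-0.69, SE 0.208), and -0.67 without irinotecan replicate 1. Robo4, a guidance receptor that stabilises vessels, had 182, 198 and 175 against 101.7, 153 and 156, also without overlap (-0.46, SE 0.224), and was at -0.26 without irinotecan replicate 1.

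The main VEGF receptor showed no separation. Kdr had 362, 230.0 and 311 normalized counts in control tumours, against 227, 232 and 315 in irinotecan tumours (-0.21, 95% interval -0.73 to 0.30). It stood between -0.39 and -0.07 with 1 library left out, and at -0.13 without irinotecan replicate 1. Flt1, which binds VEGF-A and PlGF, was at -0.21 (SE 0.160), and the lymphatic VEGF-C receptor Flt4 at -0.52 (SE 0.377). Without irinotecan replicate 2 they were at -0.11 and -0.16. Notch4 had 326, 360 and 241 against 174, 230.2 and 293, and overlapped (-0.42, SE 0.244). It was at -0.23 without irinotecan replicate 1.

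In Eng and Ramp2 most of the value came with irinotecan replicate 1. Eng, a TGF-beta co-receptor of endothelium, was at -0.53 (SE 0.339) and at -0.10 without that library. Ramp2 was at -0.65 (SE 0.435) and at -0.20 without it, and shares 1103 of its 3301 exon bases with Vps25 on the same strand. How reads in the shared bases were counted was not stated in the sources used here. S1pr1, the sphingosine-1-phosphate receptor, was at -0.24 (SE 0.193), and at -0.11 without irinotecan replicate 3.

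The VEGF ligands, which many cell types make, did not separate the groups. Vegfa had 2226, 3098 and 2354 normalized counts in control tumours, against 2070.0, 2451 and 2188 in irinotecan tumours, and the ranges overlapped (-0.18, SE 0.160, 95% interval -0.55 to 0.18). It was at -0.04 without control replicate 2. Pgf, which encodes PlGF, had 73.9, 99.3 and 59.1 against 30.8, 65.5 and 54.7 (-0.65, SE 0.356), and -0.33 without irinotecan replicate 1. Genes induced by hypoxia, which also induces Vegfa, were mixed: 5 of 10 were negative, with a median of -0.005, and 0 passed an unadjusted limma p of 0.05 in either direction. Without irinotecan replicate 1, 9 of 10 were negative, 3 of them at that p, with a median of -0.27. Their medians per library were 0.47, -0.14 and -0.40 with irinotecan, so irinotecan replicate 1 lay above the control mean and the other 2 below it. In this list Egln3 was at -0.88 (SE 0.425) and Ankrd37 at -0.60 (SE 0.298). Egln3 was at -1.36 without irinotecan replicate 1.

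Among the sialomucins, glycoproteins of the endothelial surface, Emcn had 176, 189 and 229 normalized counts in control tumours, against 59.6, 147 and 144 in irinotecan tumours (-0.86, SE 0.352), and was at -0.43 without irinotecan replicate 1. Podxl had 203, 207 and 226 against 149.9, 150.3 and 195 (-0.37, SE 0.189). Both separated the groups. Cd34, which marks vessels and also progenitor and stromal cells, did not, with 9543, 9428 and 8689 against 6564, 9047 and 9363 (-0.16, SE 0.168). Its value without irinotecan replicate 1 was -0.001.

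All 8 of the other endothelial genes had a negative value, with a median of -0.67 that went to -0.29 without irinotecan replicate 1. Nos3, the endothelial nitric oxide synthase, had 143, 121 and 136 normalized counts in control tumours, against 47.2, 97.3 and 86.2 in irinotecan tumours (-0.85, SE 0.301), and was at -0.53 without irinotecan replicate 1. On the other strand an antisense RNA and Atg9b overlap 1040 and 294 of its 4132 exon bases. Egfl7, a secreted vessel factor that hosts a microRNA gene, had 204, 164 and 207 against 63.7, 157 and 151 (-0.73, SE 0.348), and was at -0.31 without irinotecan replicate 1. Plvap, the diaphragm protein of fenestrated vessels, had 681, 566 and 603 against 162, 464 and 573 (-0.81, SE 0.414), and was at -0.25 without that library.

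The rest of this group spread widely. Rasip1, needed for vessel lumens, was at -1.04 (SE 0.584) and at -0.31 without irinotecan replicate 1, and shares 654 of its 3202 exon bases with Izumo1. Ecscr was at -0.34, the matrix protein Mmrn2 at -0.26 and the surface lectin Clec14a at -0.05, and the groups overlapped in all 3. Ecscr was at -0.09 and Clec14a at -0.24 without irinotecan replicate 1, and without irinotecan replicate 2 Mmrn2 was at -0.13. Vwf, the clotting factor stored in endothelium and platelets, ran opposite to the others in 1 library. It had 29.9, 28.2 and 16.5 in control tumours, against 56.5, 5.78 and 10.1 in irinotecan tumours, so irinotecan replicate 1 was the highest of all 6 and the other 2 the lowest. Its log2 fold change was -0.62 (SE 0.762) with all libraries and -1.53 without irinotecan replicate 1. The platelet gene Gp1ba, singled out after its values were seen, had 28.7 normalized counts in irinotecan replicate 1 and 1.93 to 7.48 in the other libraries. It was below the filter on low values and was not tested. The rest of the platelet list went both ways. Gp9 (7.19) and Gp6 (5.13), also below the filter, were highest in irinotecan replicate 1. Of those above it, Pf4 (166) was lowest in that library, and Itga2b (71.9) and Ppbp (29.8) lay within the range of the other libraries. The part of platelet RNA in the Vwf values was not tested.

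Levels per kilobase of deposited gene length differed by orders of magnitude among the members. In controls Esm1 was highest, at 4678 ± 749.7 normalized counts per kilobase (SD, n = 3), followed by Cd34 (1265 ± 63.6), Vegfa (597 ± 109.9) and Apln (378 ± 53.7). Each of these 4 lay above the next in every control library. The pan-endothelial Cdh5 stood at 206 ± 13.1, Kdr at 33.3 ± 7.36 and Vwf, the lowest, at 1.55 ± 0.456. From S1pr1 (82.8) down to Icam2 (44.9) no member was separate from the next in all control libraries. Which cells made the RNA of Esm1, Cd34, Vegfa, Apln or any other member was not measured.

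**Figure D5:**
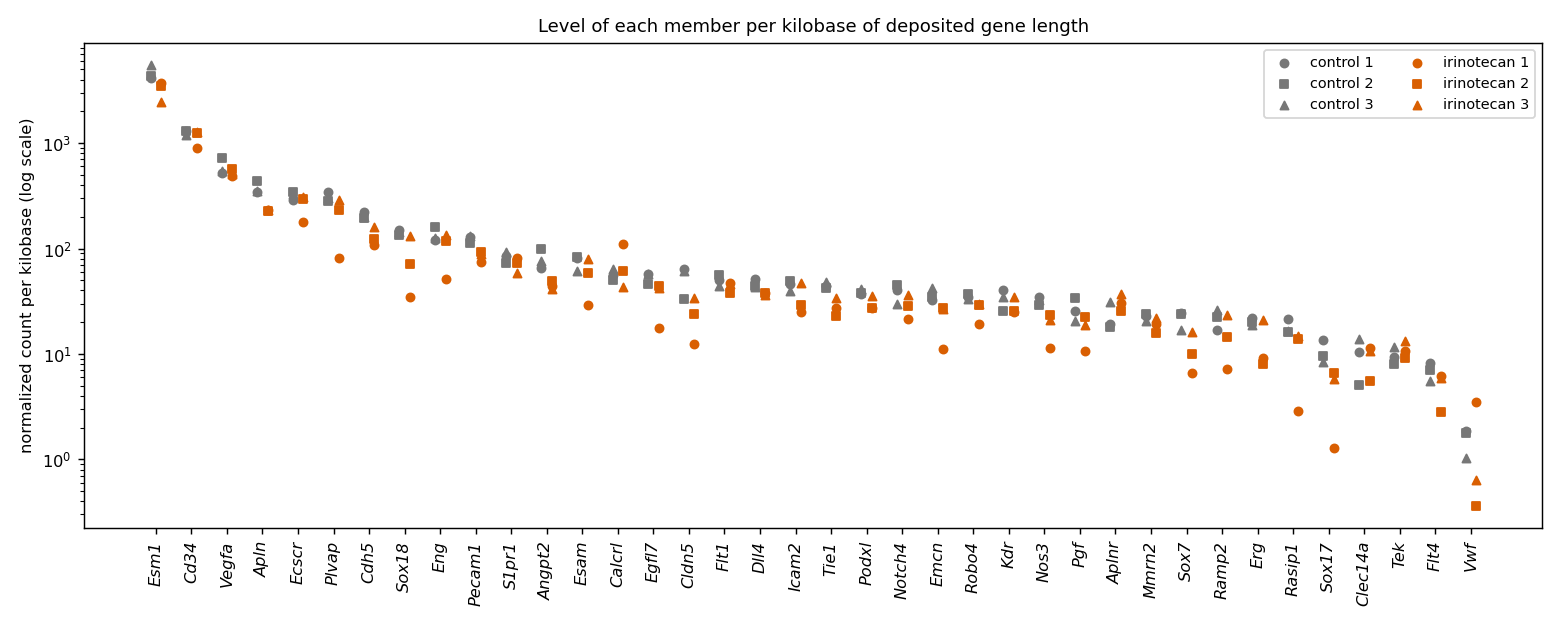
Normalized count per kilobase of deposited gene length (y axis, log scale) for each member in order of its control mean (x axis), with 1 point per library, grey for controls and orange for irinotecan. Esm1, Cd34, Vegfa and Apln lead, and Vwf is lowest, with irinotecan replicate 1 above the controls.

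Members were next set against the junction genes of the same library, as log2 of the member minus the mean log2 of the 5 junction genes. On this scale 28 of the 33 members outside the reference overlapped between groups, 0 were lower in every irinotecan library and 5 were higher. Over all tested genes 50.1% were higher and 0.198% lower, since the reference itself was lower with irinotecan. Relative to junction genes, Apln stood at 2.27 ± 0.300 in controls and 2.24 ± 0.475 with irinotecan (SD, n = 3), Angpt2 at 0.25 ± 0.422 and 0.11 ± 0.514, and Tie1 at -0.15 ± 0.149 and -0.16 ± 0.411. The groups overlapped in all 3. In irinotecan replicates 1, 2 and 3, Apln stood at 2.75, 2.16 and 1.81. In the same order Angpt2 stood at 0.58, 0.19 and -0.44, and Tie1 at 0.31, -0.48 and -0.29. In each gene, irinotecan replicate 1 lay above the control mean and replicates 2 and 3 below it. Of the 33 members, 12 had a negative difference between groups and 21 a positive one, from -0.73 (Sox17, with overlap) to 1.14 (Aplnr). The 5 that were higher on this scale were Aplnr (difference 1.14), Tek (0.87), Cd34 (0.52), Kdr (0.47) and Podxl (0.31).

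Further endothelial genes outside the 38 were mostly negative too. Of 20 listed genes 19 had a negative log2 fold change, with a median of -0.40, and 4 were lower at an unadjusted limma p under 0.05 (0 higher). Adgrf5 had 603, 658 and 724 normalized counts in control tumours, against 521, 350 and 463 in irinotecan tumours (-0.59, SE 0.182), and Adgrl4 had 204, 202 and 229 against 62.6, 113 and 171 (-0.98, SE 0.340), which was -0.60 without irinotecan replicate 1. Both are adhesion G protein-coupled receptors of vessels. Without irinotecan replicate 1 the list's median was -0.17, with 17 of 20 negative.

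Other genes of the VEGF, angiopoietin and Notch pathways went both ways, with 13 of 21 tested genes negative and a median of -0.05. Of these 4 were lower and 2 higher at an unadjusted limma p under 0.05. Pdgfb, which tip cells make to recruit pericytes, had 252, 321 and 286 normalized counts in control tumours, against 124, 162 and 180.4 in irinotecan tumours (-0.89, SE 0.206). The Notch target Nrarp had 124, 154 and 113 against 26.7, 76.1 and 87.2 (-1.19, SE 0.430), and was at -0.66 without irinotecan replicate 1. The 2 higher genes, named after their values were seen, were Vegfd (0.66, SE 0.247), a lymphatic growth factor, and Efnb2 (0.33, SE 0.142), an arterial ephrin. Of the selectins and adhesion molecules that capture leukocytes, 3 of 4 tested were negative, with Sele at -0.35 (SE 0.134) and Selp at -0.34 (SE 0.165). The median of the 4 was -0.22, and -0.09 without irinotecan replicate 1.

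Markers of other cells in the tumour also differed. Of 10 pericyte and smooth muscle markers tested, 8 were negative (median -0.50). Their summed normalized counts were 2787 to 3032 in controls and 2391 to 2884 with irinotecan. Mcam was at -0.58 (SE 0.136) and Acta2 at -1.33 (SE 0.341), both without overlap. Leukocyte markers, some of which share cells with Pecam1, summed to 4516 to 5040 and 2962 to 4496, with 5 of 6 negative, Adgre1 at -0.41 (SE 0.163) and Csf1r at -0.35 (SE 0.175). Csf1r was at -0.16 without irinotecan replicate 1, and the median of the leukocyte markers went from -0.38 to -0.10. The fibroblast markers summed to 7390.1 to 12508 and 9073 to 10173, with 3 of 5 negative, Lum at -0.54 (SE 0.238) and Col1a1 at -0.27 (SE 0.310). Col1a1 turned to 0.12 without that library, and the median of these markers went from -0.27 to -0.07. Platelet markers had 3 of 6 genes above the filter, 2 of them negative, with Itga2b at 0.04, Pf4 at -0.96 (SE 0.339), Ppbp at -0.67 (SE 0.585) and Gp6 at 0 in all controls. Lymphatic markers had 2 of 6 above it, with Lyve1 at -1.22 (SE 0.458), Pdpn at -0.13 (SE 0.264) and Prox1 at 0 in all libraries but control replicate 1, which had 1.87. Lyve1 was at -0.73 and Pdpn at -0.36 without irinotecan replicate 1. Skeletal muscle markers, 4 of 4 positive, summed to 16.7 to 278 and 99.6 to 618, and the 4 adipocyte genes to at most 8.21. The part of these cells in the endothelial values was not tested.

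Base composition moved with irinotecan replicate 1. The 15 members above 55% GC, a limit set after the values were seen, had a median of -1.16 in this library relative to the other 2 irinotecan libraries, and the 23 others one of -0.16. Over all tested genes the same medians were -0.42 and 0.10. The median log2 fold change of the 2 sets of members was -0.69 and -0.37 with all libraries, and -0.31 and -0.27 without irinotecan replicate 1. After removal of a fitted curve for GC and length, the median over all 38 members was -0.46 and Apln stood at -0.64.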

How the data were processed

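The authors deposited a normalized signal, gene counts divided by 1 size factor per library, in the 6 library columns of 1 table. Each value is a whole multiple of 1 step per library (100% of values, tolerance 1e-06), so whole reads were recovered by division. Per the file headers it also holds log2 fold changes, p-values, adjusted p-values and gene length. The submitters' processing notes name DESeq2 1.20.0, featureCounts 1.5.0-p3, HISAT2 2.0.5, fastp and CASAVA, and the build GRCm38, without roles. The table holds no other sample's values. With no raw counts in it, log2(normalized count + 1) of genes with a mean of at least 10 was fitted with limma 3.58.1 (R 4.3.3; empirical Bayes, mean-variance trend, group only, two-sided), across 14639 genes with Benjamini-Hochberg adjustment. Intervals are limma's. edgeR 4.0.16, DESeq2 1.42.0 and limma-voom on recovered reads, other scalings, filters and pseudocounts, library weights, a GC and length trend (mgcv 1.9.3), the replicate block and each library left out were alternatives. Tests were first run on simulated counts, where DESeq2 recovered more of the changed genes than limma and also made more false calls. There limma missed nearly all of the smallest changes and most of those of middle size. The labels name no molecular identifiers, so depth bounds counting error only.

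The 38 members, role groups and lists were chosen with earlier results of these data known. Values per library are given for all junction, tip-cell, transcription factor and VEGF ligand genes, for the 3 smallest p-values in the other groups and for a few further members chosen after their values were seen. From each other list, up to 2 tested genes with the smallest p are named, plus exceptions named as such and markers at 0.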

Additional observations from a re-analysis of the deposited data

How the results depend on the processing

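All members kept their direction in every alternative except Vwf (0.01 without irinotecan replicate 2), Clec14a (up to 0.28, opposite in 4 alternatives) and Calcrl (-0.06 with library weights, -0.13 without irinotecan replicate 1). Over all tested genes, 52 were called by DESeq2 and 52 by limma with estimated library weights, both with Apln as the 1 member, and 0 to 2 when 1 library was left out. The count of members at an unadjusted p under 0.05 was 9 to 15 across normalizations, pseudocounts, filters and tests, 4 at p under 0.01, and 6 to 21 when 1 library was left out. The share over all tested genes differed between settings and was counted only for those given with it above. The 15, with library weights, has no such share and cannot be read alone. With 1 library left out, the median of all members lay between -0.70 (without irinotecan replicate 3) and -0.31 (without irinotecan replicate 1), of junction genes between -0.83 and -0.46, of receptors between -0.46 and -0.21, of transcription factors between -1.44 and -0.67, and of tip-cell genes between -0.70 and -0.53. Single members moved over 1.5 times in 20 cases without irinotecan replicate 1, in 12 without irinotecan replicate 3 and in 3 to 6 without any other library. The cause of these shifts was not tested.

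The labels give no pairing of same-numbered libraries. Their deviations from the group means correlated at -0.11, -0.01 and -0.21 across genes, which with so few libraries cannot show whether they were paired. With the replicate block 11 members had an unadjusted p under 0.05, for which the share over all tested genes was not counted, and 0 genes were called. Sox17 and Vwf rest on few reads (6 to 69 and 6 to 55 per library).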

Other observations

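Angpt1, the activating ligand of Tek, was below the filter on low values and was not tested. Its normalized counts were 9.35, 12.5 and 5.81 in control replicates 1, 2 and 3, and 0, 2.89 and 1.01 with irinotecan, so the groups did not overlap. It was singled out after its values were seen. The other 2 pathway genes that were lower at an unadjusted limma p under 0.05 were the Notch target Hes1 (204.7, 200.7 and 160.7 against 111.9, 143.5 and 132.8 normalized counts) and Adm, which encodes adrenomedullin (67.3, 70.1 and 60.0 against 53.4, 29.9 and 35.5). In both, no irinotecan library reached the lowest control.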
